A study of Mus musculus with 6 samples.

Results

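The transcripts described here belong to LIF, gp130 and STAT3 signalling: 10 genes taken by name from the 11866 genes of an RNA-seq table, all 10 of them present. They are the ligand Lif, the receptor chains Lifr, Il6st and Osmr, the kinases Jak1 and Jak2, the transcription factor Stat3, the feedback inhibitors Socs2 and Socs3 and the target Pim1. Poly(A) RNA was sequenced from HCC3-4 cells, a mouse liver tumour line that came from MYC transgenic mice. Of 6 libraries, 3 came from cells that stably carried a hairpin against Sf3b3 (KD) and 3 from cells with the control vector pLKO.1-TRC (PLKO). All 6 share the HCC3-4 background from MYC transgenic mice, and both groups grew in the same serum medium. Sf3b3 encodes a subunit of SF3b, the complex that recognises the branch point of introns, and the series asks about splicing of the bile acid receptor FXR by SF3B3. The labels name 1 hairpin target and no rescue, so effects of lower Sf3b3 and other effects of the hairpin cannot be told apart.

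LIF and its relatives are cytokines that signal through gp130, the receptor chain encoded by Il6st. LIF binds LIFR, and oncostatin M in the mouse binds OSMR, and each of these chains pairs with gp130. Kinases of the JAK family attached to the receptors then phosphorylate STAT3, which enters the nucleus and switches on target genes. Among these targets are SOCS proteins, which shut the receptors and kinases off again, and the survival kinase PIM1. In liver the pathway is best known for the acute phase response and for a part in regeneration and tumour growth.

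The libraries held between 15140441 and 17566101 reads on listed genes, and the 10 genes had between 88 and 12781 reads per library. Levels are given as FPKM, a read measure corrected for gene length and sequencing depth. For most genes the length that fits the values is that of all annotated exons together, whether used in these cells or not. Levels of different genes can therefore be compared only roughly. Sf3b3 had 22.6, 28.7 and 29.2 FPKM in PLKO 1, 2 and 3 and 10.3, 9.56 and 13.9 FPKM in KD 1, 2 and 3, a log2 fold change of -1.26 (limma adjusted p = 0.037). Liver identity was poorly represented in the table: of 9 hepatocyte markers Afp alone was listed, at 0.302 to 0.467 FPKM in PLKO and 0.814 to 1.98 in KD, while the epithelial keratins Krt8 and Krt18 together had 50.6 to 86.3 FPKM over all 6 libraries. Whether a group's libraries stem from separate cultures is not stated in the labels, so the p-values rest on a spread between libraries that may be only technical. The libraries numbered 3 stood apart from the others of their group for several of the 10 genes, and results are given with and without them.

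In every library of the knockdown cells Lif, Jak1 and Jak2 had higher levels and Il6st, the gp130 chain, a lower level than in any control library, and Pim1 was 3.11 times as high on average. None of these differences passed the main test. No member was called by limma across all 10770 genes with a mean of at least 1 FPKM, at an adjusted p under 0.05. The share called among all tested genes was 2.92%. At an unadjusted p under 0.05 there were 4 members, Lif, Jak2 and Pim1 with higher and Il6st with lower levels in KD, beside 27.6% of all tested genes, and voom on recovered read counts also called 0 members (2.93% of all tested genes). Quantile normalization called Lif alone (3.05%) and array weights called 6 members (56.0%). When the library number was added to the model as a block, these 4 genes were called, 3 higher and 1 lower, and the share called among all tested genes was then 19.3% (8.19% higher and 11.1% lower). The same 4 genes were called without both libraries numbered 3 (27.9% of all tested genes), and Lif, Il6st and Pim1 without KD 3 (16.2%). The groups did not overlap for 4 members (Lif, Il6st, Jak1 and Jak2), against 32.1% of all tested genes, so this count alone does not set the pathway apart. The median log2 fold change (KD minus PLKO) of the 10 genes was 0.43 and that of all tested genes was -0.04.

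**Figure D1:**
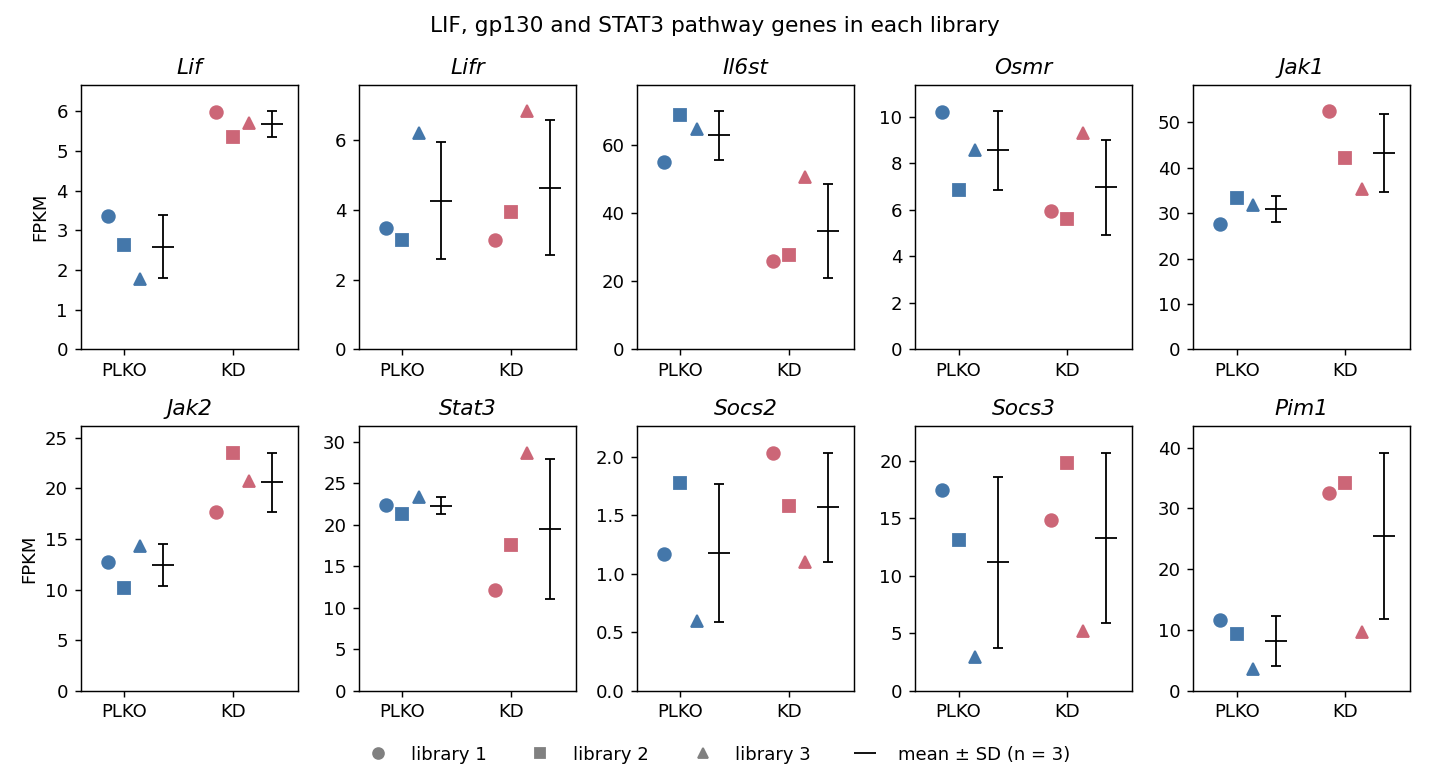
Level of each of the 10 genes in FPKM (vertical axis, linear, each panel on its own scale from 0) in the control (PLKO, blue) and Sf3b3 knockdown (KD, red) libraries; symbols mark the library number and black bars the mean ± SD of 3 libraries. Lif, Jak1 and Jak2 lie higher and Il6st lower in all KD libraries than in any PLKO library, and Socs3 and Pim1 are low in both libraries numbered 3.

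The upstream sequences of 3 members are shown because they were the members that held 1 of 4 searched motifs in the 250 bases before their RefSeq start: the AP-1 site TGANTCA, the cyclic AMP response element TGACGTCA, the STAT palindrome TTCNNNGAA and the TATA box TATAAA, none of which can contain another. RefSeq promoters (build GRCm38.p6) were found for 9 of the 10 genes, 11 promoters in all, and both strands were searched. Over all 32851 RefSeq promoters the same stretch held these motifs in 6.75%, 1.55%, 7.02% and 12.4% of cases. The bases of this stretch up to the first exon of the gene met downstream in GENCODE M21 are printed from 5′ to 3′ on the strand of the gene, with the motif in capitals. For Socs3 this stretch lies within the annotated gene, since another transcript starts farther upstream. The 3 stretches lie at chr11:4257318-4257556 (plus strand) for Lif, chr4:101265283-101265473 (minus strand) for Jak1 and chr11:117969452-117969616 (minus strand) for Socs3.
Lif: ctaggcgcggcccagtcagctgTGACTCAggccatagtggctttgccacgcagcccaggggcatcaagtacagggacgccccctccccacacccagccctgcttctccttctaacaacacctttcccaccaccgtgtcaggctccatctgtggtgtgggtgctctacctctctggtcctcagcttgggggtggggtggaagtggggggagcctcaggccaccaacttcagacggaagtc
Jak1: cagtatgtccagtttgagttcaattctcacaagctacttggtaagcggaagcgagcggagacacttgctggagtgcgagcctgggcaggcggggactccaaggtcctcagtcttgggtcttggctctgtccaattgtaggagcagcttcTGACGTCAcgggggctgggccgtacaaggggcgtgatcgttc
Socs3: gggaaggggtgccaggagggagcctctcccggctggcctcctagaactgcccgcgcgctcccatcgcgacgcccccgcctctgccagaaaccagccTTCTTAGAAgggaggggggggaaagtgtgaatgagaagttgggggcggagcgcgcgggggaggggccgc
The AP-1 match of Lif starts 228 bases and the match of Jak1 101 bases before the RefSeq start. Socs3, a classic STAT3 target, was the 1 member with the palindrome, 154 bases before its start, in a stretch that the transcript starting farther upstream holds as intron. A match is a run of letters and was not tested as a binding site.

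The ligand gene Lif was about 2 times as abundant in the knockdown cells, with a ratio of mean FPKM of 2.2. Lif (ENSMUSG00000034394.14, chromosome 11, 4257557 to 4272514, plus strand) had 3.35, 2.63 and 1.78 FPKM in PLKO 1, 2 and 3 and 5.99, 5.35 and 5.70 FPKM in KD 1, 2 and 3. All KD libraries lay above all PLKO libraries, and the KD values were close together. The means were 2.59 ± 0.785 FPKM (SD, n = 3) and 5.68 ± 0.318 FPKM (n = 3), on 121 to 262 reads in PLKO and 367 to 433 in KD. In bulk RNA, more cells with a transcript and more of it per cell cannot be told apart, and the same holds for a decrease. The log2 fold change was 1.18 (SE 0.29, 95% confidence interval 0.53 to 1.83), which missed the threshold (limma adjusted p = 0.059) and passed it with the block (adjusted p = 0.012). Without KD 3 its limma adjusted p was 0.047, and without both libraries numbered 3 the log2 fold change was 0.93 (adjusted p = 0.025). With any other single library left out the limma adjusted p of Lif was 0.06 to 0.22.

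Of the receptor chains Il6st, Lifr and Osmr, Il6st alone had groups that did not overlap. Il6st (ENSMUSG00000021756.12, chromosome 13, 112464070 to 112510086, plus strand), which encodes the shared chain gp130, had 55.1, 68.9 and 64.7 FPKM in PLKO 1, 2 and 3 and 26.0, 27.9 and 50.8 FPKM in KD 1, 2 and 3. The KD libraries were all below the PLKO libraries, with KD 3 much nearer to them than KD 1 and KD 2. The mean went from 62.9 ± 7.08 to 34.9 ± 13.8 FPKM (SD, n = 3 each), a log2 fold change of -0.91 (SE 0.28, interval -1.54 to -0.29, limma adjusted p = 0.084, or 0.022 with the block). Without KD 3 the log2 fold change was -1.22 (limma adjusted p = 0.017). With any other single library left out the limma adjusted p of Il6st was 0.11 to 0.29.

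Lifr, the chain that binds LIF itself (ENSMUSG00000054263.12, chromosome 15, 7090614 to 7197489), had 3.46, 3.13 and 6.19 FPKM in PLKO and 3.14, 3.94 and 6.81 FPKM in KD. The groups overlapped, and the library numbered 3 was the highest in each. Its log2 fold change was 0.11, with an interval from -0.73 to 0.95 (limma adjusted p = 0.87), wide enough to hold a change of either sign. The sign turned without PLKO 1, PLKO 2 or KD 3 (-0.01, -0.08 and -0.21), and the value was 0.1 without both libraries numbered 3. Osmr, the oncostatin M receptor (chromosome 15, 6813577 to 6874969), had 10.2, 6.84 and 8.59 FPKM in PLKO and 5.96, 5.62 and 9.30 FPKM in KD. KD 1 and KD 2 were below every control library and KD 3 was within the control range, for a log2 fold change of -0.31 (interval -0.93 to 0.30, limma adjusted p = 0.47). Its log2 fold change was -0.54 without KD 3, -0.53 without both libraries numbered 3 and -0.18 without PLKO 1 or KD 2, and with array weights it was called (-0.75). Whether Il6st and Osmr differed in their fold changes was not tested.

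Relative to Lifr, Il6st was less abundant in the KD libraries. Il6st stood at 15.9, 22.0 and 10.5 times the FPKM of Lifr in PLKO 1, 2 and 3, and at 8.28, 7.10 and 7.46 times in KD 1, 2 and 3. The ratio was thus lower in every KD library than in any control library and varied little among the KD libraries, KD 3 included, although both genes were highest there. This ratio was chosen after its values were seen and is given without a test. The ratio of Il6st to Osmr was 5.39, 10.1 and 7.53 in PLKO and 4.36, 4.97 and 5.46 in KD, and here the groups overlapped.

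Both JAK kinase genes had higher levels in each KD library than in any PLKO library. Jak2 (ENSMUSG00000024789.13, chromosome 19, 29251828 to 29313080, plus strand) had 12.7, 10.2 and 14.3 FPKM in PLKO 1, 2 and 3 and 17.7, 23.5 and 20.7 FPKM in KD 1, 2 and 3, with a log2 fold change of 0.74 (SE 0.22, interval 0.24 to 1.23, limma adjusted p = 0.082, or 0.042 with the block). Jak1 (ENSMUSG00000028530.14, chromosome 4, 101152367 to 101265282, minus strand), the main kinase of gp130, had 27.7, 33.3 and 31.8 FPKM in PLKO and 52.4, 42.1 and 35.3 FPKM in KD. KD 3 was only a little above the highest control, and the log2 fold change of 0.47 (SE 0.21, interval -0.02 to 0.95) missed the threshold without the block (limma adjusted p = 0.19) and with it (0.16). Without both libraries numbered 3 the log2 fold change was 0.63 (limma adjusted p = 0.075). Jak1 overlaps Raver2 on the opposite strand, and the use of strand in counting is not given in the sources used here.

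Stat3 itself showed more spread within the KD group than difference between the groups. The gene (ENSMUSG00000004040.16, chromosome 11, 100885098 to 100939540, minus strand, overlapping Stat5a on the opposite strand) had 22.4, 21.3 and 23.4 FPKM in PLKO and 12.1, 17.6 and 28.7 FPKM in KD 1, 2 and 3. The control libraries were nearly equal, whereas the KD libraries lay on both sides of them. The log2 fold change was -0.29 (interval -0.97 to 0.39, limma adjusted p = 0.56), and it was 0.01 without KD 1 and -0.61 without KD 3. Without both libraries numbered 3 it was -0.58 (limma adjusted p = 0.11).

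**Figure D2:**
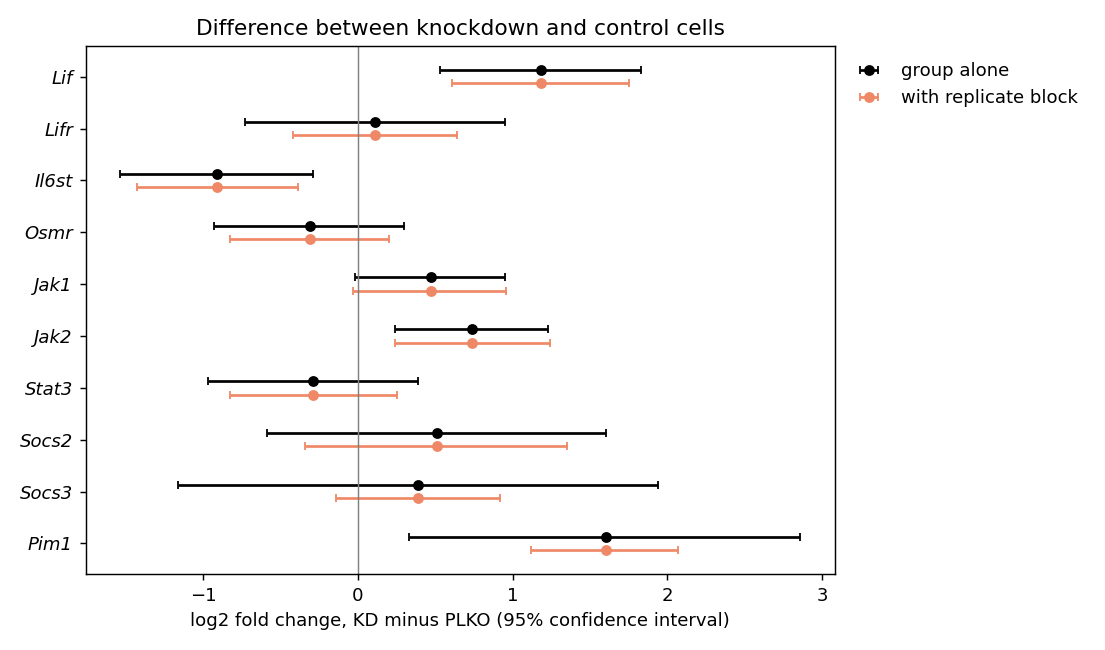
Log2 fold change of each gene (horizontal axis, KD minus PLKO, points) with its 95% confidence interval (bars) from limma with the group alone (black) and with the library number as a block (orange). With the block the interval of Pim1 narrows to 1.12 to 2.07 and that of Socs3 to -0.14 to 0.92.

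The feedback inhibitor Socs3 and the target Pim1 varied more between libraries of 1 group than nearly all other genes. Socs3 (ENSMUSG00000053113.3, chromosome 11, 117966079 to 117970047, minus strand), which binds gp130 and blocks its kinases, had 17.5, 13.1 and 2.95 FPKM in PLKO 1, 2 and 3 and 14.9, 19.8 and 5.16 FPKM in KD 1, 2 and 3. The libraries numbered 3 were the lowest of both groups, on 133 and 260 reads, and the groups overlapped. Its SD within groups was 1.21 on the log2 scale, larger than that of 98.7% of tested genes (median 0.33), and that of Pim1 was larger than in 97.2%. The log2 fold change of 0.39 had an interval from -1.16 to 1.94 (limma adjusted p = 0.73). With the block the interval ran from -0.14 to 0.92 (limma adjusted p = 0.27). The log2 fold change of Socs3 was -0.40 without PLKO 3 alone and 0.18 without both libraries numbered 3 (limma adjusted p = 0.61).

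Pim1 (ENSMUSG00000024014.8, chromosome 17, 29490753 to 29496112, plus strand), a kinase gene that STAT proteins switch on, had the largest fold change of the 10 genes. It had 11.7, 9.27 and 3.59 FPKM in PLKO 1, 2 and 3 and 32.6, 34.2 and 9.68 FPKM in KD 1, 2 and 3. KD 1 and KD 2 were far above all controls, while KD 3 lay within the control range and PLKO 3 was the lowest library. The log2 fold change was 1.60 (SE 0.56, interval 0.33 to 2.86, limma adjusted p = 0.11). Taken by library number, the KD library exceeded the PLKO library of the same number by 1.48, 1.88 and 1.43 on the log2 scale. The labels do not pair these libraries, and 55.3% of all tested genes had 1 sign in all 3 such differences. With the block Pim1 was called (SE 0.22, limma adjusted p = 0.0018). Leaving out KD 3 gave a log2 fold change of 2.19 (adjusted p = 0.025), and leaving out PLKO 3 as well gave 1.68 (adjusted p = 0.0033). An antisense transcript, Gm26885, overlaps Pim1, and its reads cannot be told apart without strand.

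Socs2, an inhibitor best known for damping growth hormone signalling, had the lowest mean FPKM of the 10 genes in both groups. In PLKO 2, however, Socs2 had more reads (281) than Lif (189), over an annotated exonic length of 9531 against 4350 bases. Socs2 (ENSMUSG00000020027.18, chromosome 10, 95385362 to 95417180, minus strand) had 1.17, 1.78 and 0.596 FPKM in PLKO and 2.03, 1.58 and 1.10 FPKM in KD. It was again lowest in the libraries numbered 3. The groups overlapped, and at a log2 fold change of 0.51 (interval -0.59 to 1.60) the limma adjusted p was 0.52. The value was 0.08 without PLKO 3, 0.87 without PLKO 2 and 0.32 without both libraries numbered 3. By a two-sided exact permutation test on the 6 log2 values p was 0.1, below which 3 against 3 libraries cannot go, for Lif, Il6st, Jak1 and Jak2 and from 0.2 (Pim1) to 0.7 (Lifr) for the others.

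**Figure D3:**
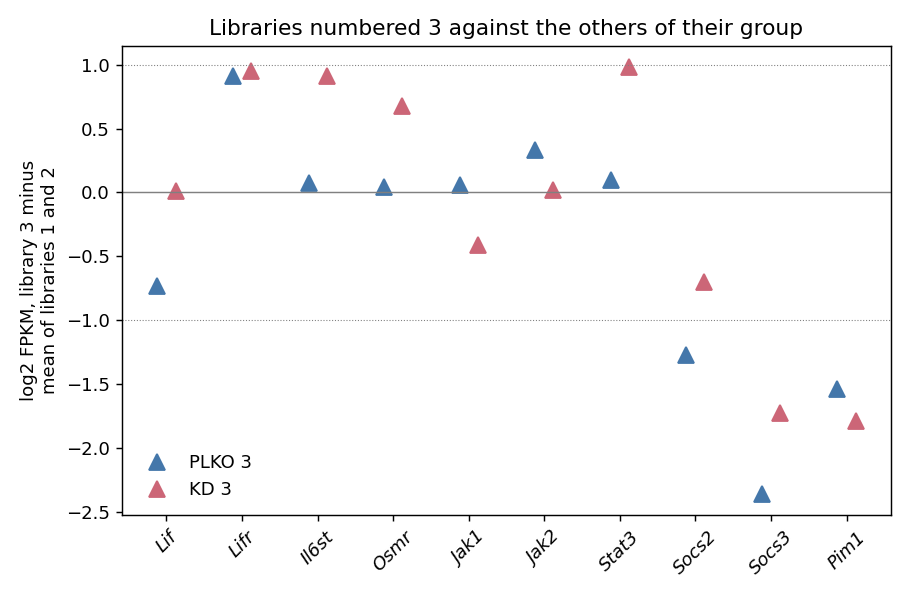
Log2 FPKM of library 3 minus the mean of libraries 1 and 2 of the same group (vertical axis) for each gene (horizontal axis) in PLKO (blue) and KD (red); dotted lines mark differences of 1. Socs3 and Pim1 lie below -1 in both groups, and Il6st, Osmr and Stat3 differ in KD 3 but hardly in PLKO 3.

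The libraries numbered 3 deviated in different ways among the 10 genes. Socs3 was lower by 2.36 in PLKO 3 and by 1.73 in KD 3 than the mean of the other libraries of the group on the log2 scale, and Pim1 by 1.54 and 1.79. These 2 members were more than 1 log2 unit lower in both libraries numbered 3, as were 198 or 1.84% of all tested genes. Il6st, Osmr and Stat3 were higher by 0.91, 0.68 and 0.98 in KD 3, against 0.07, 0.04 and 0.10 in PLKO 3. For these 3 genes KD 3 therefore lay nearer to the controls than KD 1 and KD 2 or above them. Sf3b3 was highest in the library numbered 3 of each group, with 13.9 FPKM in KD 3 and 29.2 FPKM in PLKO 3. Whether the level of Sf3b3 is related to these deviations was not tested. What the equal numbers share is not given in the labels.

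Il6st and Jak1 had the highest mean FPKM of the 10 genes in both groups. In PLKO the order of the levels ran Il6st, Jak1, Stat3, Jak2, Socs3, Osmr, Pim1, Lifr, Lif and Socs2, from 62.9 to 1.18 FPKM on average. Il6st, Jak1, Stat3 and Jak2 each lay above the next of these 4 in every library, and Socs2 lay below Lif. From Jak2 down to Lif the library ranges of neighbours overlapped. In KD the order ran Jak1, Il6st, Pim1, Jak2, Stat3, Socs3, Osmr, Lif, Lifr and Socs2, from 43.3 to 1.57 FPKM. The ranges of all neighbours in KD overlapped except for Lifr and Socs2. Pim1 was at 8.19 ± 4.16 FPKM in PLKO and 25.5 ± 13.7 FPKM in KD (SD, n = 3 each), and moved from the seventh place to the third.

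Beyond these 10 genes, a list of 72 other genes of the pathway was examined, of which 51 were listed and 45 tested. None of the 45 was called by limma with the group alone (0 with voom), where 2.92% of all tested genes were called. At an unadjusted p under 0.05 there were 12, or 26.7%, about the share of all tested genes (27.6%). With the block 11 of the 45 were called, 7 higher and 4 lower, beside 19.3% of all tested genes. The median log2 fold change of the 45 was 0.14, with 29 above and 16 below 0, and the groups did not overlap for 13, or 28.9%, beside 32.1% of all tested genes.

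Among the ligands, Clcf1 had higher levels in each KD library than in any PLKO library. Clcf1, which encodes a cytokine that signals through CNTFR, gp130 and LIFR, had 9.38, 5.82 and 13.8 FPKM in PLKO 1, 2 and 3 and 22.3, 18.9 and 18.9 FPKM in KD 1, 2 and 3 (log2 fold change 1.13, SE 0.31, limma adjusted p = 0.067, or 0.012 with the block). Clcf1 overlaps the protein-coding gene AC109138.7 on the same strand, and how shared reads were counted is not given in the sources used here. Il11, the other ligand gene described, had a log2 fold change of 0.08 (limma adjusted p = 0.88).

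The 2 cytokine-specific receptor chains that could be tested had opposite signs. Il6ra, which lends gp130 its specificity for interleukin 6, had 1.96, 1.68 and 2.21 FPKM in PLKO and 3.65, 3.67 and 5.02 FPKM in KD, without overlap (log2 fold change 1.07, limma adjusted p = 0.062, or 0.018 with the block). Il11ra1, the interleukin 11 receptor, had 9.52, 9.16 and 27.5 FPKM in PLKO and 4.24, 6.37 and 11.2 FPKM in KD (-1.0, limma adjusted p = 0.21, or 0.014 with the block). The library numbered 3 was the highest of each group for Il11ra1, and its log2 fold change was -0.48 without PLKO 3 (limma adjusted p = 0.43), -0.66 without KD 1 and -0.85 without both libraries numbered 3 (limma adjusted p = 0.037). Its locus overlaps several genes, Galt on the same strand among them, and near-identical Il11ra copies can share its reads.

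**Figure D4:**
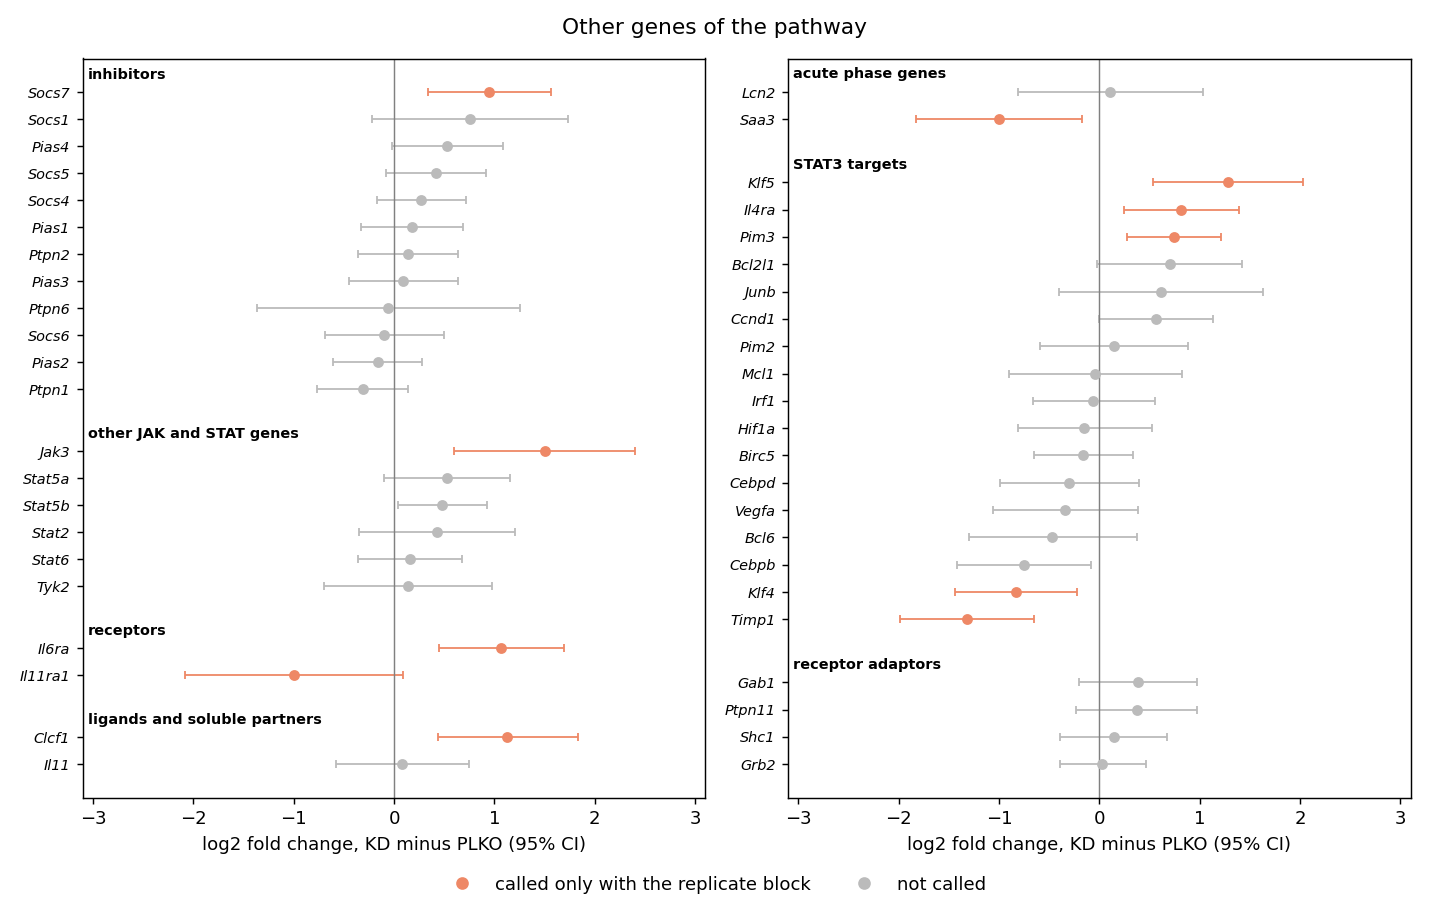
Log2 fold change (horizontal axis, KD minus PLKO, points) with 95% confidence interval (bars) from limma with the group alone for the 45 other tested pathway genes, grouped by role; orange marks genes called only with the library number as a block, and grey the rest. Of the 45 points 11 are orange, 7 above and 4 below 0.

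Of 6 other JAK and STAT genes described here none was called by limma with the group alone, beside 2.92% of all tested genes. With voom 0 were called (2.93% of all tested genes), and 2 had an unadjusted p under 0.05 (27.6%). With the block Jak3 alone was called, with higher levels in KD, beside 19.3% of all tested genes. Jak3, a kinase best known from lymphocytes, had 5.51, 1.89 and 3.91 FPKM in PLKO and 7.08, 10.6 and 12.4 FPKM in KD (log2 fold change 1.50, limma adjusted p = 0.064, or 0.011 with the block). Stat5b, a factor of growth hormone signalling, had 12.2, 11.1 and 11.6 FPKM in PLKO and 18.5, 15.8 and 14.7 FPKM in KD (0.48, limma adjusted p = 0.15). Its close relative Stat5a had 2.49, 1.95 and 3.27 FPKM in PLKO and 3.46, 3.68 and 3.77 FPKM in KD (0.53, limma adjusted p = 0.24). The groups did not overlap for 3 of the 6 genes, beside 32.1% of all tested genes, and these were the 3 named for their low adjusted p.

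Of 12 tested inhibitors none was called with the group alone, beside 2.92% of all tested genes, and 0 with voom (2.93%). At an unadjusted p under 0.05 there was 1, beside 27.6% of all tested genes. Socs7 alone was called with the block, beside 19.3%. Socs7 had 9.0, 9.69 and 10.3 FPKM in PLKO and 27.2, 17.6 and 13.5 FPKM in KD (log2 fold change 0.95, limma adjusted p = 0.074, or 0.023 with the block). Pias4 had a log2 fold change of 0.53 (limma adjusted p = 0.19) and Socs5 one of 0.42 (0.24). Cish, which encodes the STAT5-induced inhibitor CIS, had a mean below 1 FPKM and was not tested, and is named here after its values were seen. It had 50, 35 and 12 reads in PLKO 1, 2 and 3 and 204, 174 and 55 reads in KD 1, 2 and 3, so that the groups did not overlap. Each library numbered 3 was the lowest of its own group, as for Socs3 and Pim1. Without the filter on low values the log2 fold change of Cish was 2.14 (SE 0.67, limma adjusted p = 0.092). The 4 receptor adaptors had log2 fold changes from 0.03 to 0.38, with Gab1, Ptpn11 and Shc1 at limma adjusted p = 0.36, 0.38 and 0.72.

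Known STAT3 targets did not share a direction. Of 17 tested, 7 had values above and 10 below 0, with a median log2 fold change of -0.06. None was called with the group alone, beside 2.92% of all tested genes, and 0 with voom (2.93%). At an unadjusted p under 0.05 there were 6, beside 27.6% of all tested genes. With the block 3 were called higher and 2 lower, beside 8.19% and 11.1% of all tested genes. Klf5 had 12.4, 6.39 and 5.49 FPKM in PLKO and 22.0, 20.3 and 13.8 FPKM in KD (1.28, limma adjusted p = 0.063, or 0.0051 with the block), and Pim3, a close relative of Pim1, had 27.2, 25.9 and 25.4 FPKM in PLKO and 41.4, 54.3 and 36.9 FPKM in KD (0.74, limma adjusted p = 0.073, or 0.035 with the block). Timp1, a secreted inhibitor of metalloproteinases, had 90.3, 69.1 and 49.5 FPKM in PLKO and 19.9, 27.5 and 36.4 FPKM in KD (-1.32, limma adjusted p = 0.0503, or 0.011 with the block). Of 15 liver acute phase genes 4 were listed and 2 tested. Saa3 had 10.2, 13.4 and 7.58 FPKM in PLKO and 2.90, 6.71 and 6.67 FPKM in KD (-1.0, limma adjusted p = 0.12, or 0.031 with the block), and Lcn2 had a log2 fold change of 0.11 (limma adjusted p = 0.88).

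Markers of other cell types were set beside these values. Of 6 stellate cell and fibroblast markers 4 were listed (Col1a1, Col3a1, Pdgfrb and Des, not Acta2 or Lrat). Their summed level was 94.7 to 145 FPKM in PLKO and 39.9 to 67.3 FPKM in KD, without overlap. Most of the sum came from Pdgfrb and Col3a1 (means of 63.0 and 47.0 FPKM in PLKO). Singly, Col1a1, Col3a1 and Pdgfrb were lower in KD without overlap, as found in either direction for 32.1% of all tested genes. Des, at 0.974 FPKM or less in each library, overlapped between the groups. Of 5 leukocyte markers Cd68 alone was listed, at 9.19 to 42.1 FPKM in PLKO and 44.4 to 95 FPKM in KD, while Ptprc, Adgre1, Csf1r and Lyz2 were not among the listed genes, nor was any of 4 endothelial markers. The cholangiocyte markers Krt19, Sox9 and Spp1 together had 109 to 237 FPKM in PLKO and 134 to 253 FPKM in KD. The part of these differences in the values of the LIF pathway was not tested.

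The genes whose profile was most like that of Lif over the 6 libraries were Susd6, Slc20a1, Gnaz, Als2cl and Mast3, with Pearson r from 0.986 to 0.996 on the log2 values. Their log2 fold changes ran from 0.48 (Slc20a1) to 1.26 (Gnaz). For Socs3 they were Sema4b, AI429214, Ankrd9, Efna4 and Zfp688 (r from 0.993 to 0.997), each lowest in the libraries numbered 3 of both groups. These are the highest of 10769 correlations for each gene over 6 libraries that share the group and the library number, and are given as a description.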

How the data were processed

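RNA-seq values of 3 KD and 3 PLKO libraries, grouped by their titles, were analysed. The authors deposited log2 FPKM per gene, as read from the labels and the values (-7.85 to 13.17); the submitters' processing notes name GRCm38 as the build, and FastQC 0.11.7. Which aligner, counter and strand setting made them was not given in the sources used here. A prior in the values (mean 2.0 reads per library) understates fold changes of genes with few reads. Whole reads were recovered from the steps of the values for 100.0% of genes (tolerance 0.01 reads), with exonic lengths from GENCODE M21 for 10963 genes and a scan over lengths for the rest; they serve as depth and in voom. Precision is limited by 3 libraries per group.

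Differences were tested with limma 3.58.1 (R 4.3.3) with a trended prior variance, fitted to the deposited log2 values of 10770 genes (mean of at least 1 FPKM), group alone, 4 residual degrees of freedom, Benjamini-Hochberg adjusted over all tested genes; an adjusted p under 0.05 was called. The fit was tested on simulated data. Alternatives were log2(FPKM + 1), no filter or a mean of at least 5 FPKM, quantile normalization, median centring, array weights, voom with trimmed-mean scaling, a replicate block, each library left out and, chosen after seeing the data, both libraries numbered 3 left out. Deviations from the group means correlated at 0.18, 0.29 and 0.50 between libraries of equal number, above the limit of 0.1, so block values are printed beside the results they change, while the main fit has no block; the pairing comes from the data, not a label, and PLKO 1 with KD 2 (0.27) and PLKO 2 with KD 1 (0.30) were as alike.

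The 10 genes and the lists were chosen with earlier results of these data known. A few genes of the lists are not reported here and are left out of the lists' counts. Of the other pathway genes those called and up to 3 per role with the lowest adjusted p are named. Positions (1-based, GRCm38) come from GENCODE M21, where 97.5% of listed symbols matched 1 gene. Il6ra, Timp1 and Cish also overlap annotated genes on the opposite strand.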

Additional observations from a re-analysis of the deposited data

How the results depend on the processing

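Over all tested genes 314 were called, against 2080 with the replicate block, 6030 with array weights (whose fit stopped before it converged), 3009 without both libraries numbered 3, and 0 to 1744 with 1 library left out. No gene was called without PLKO 1, PLKO 2, KD 1 or KD 2. Of the 10 genes 0 were called (2.92% of all tested genes), against 1 with quantile normalization (3.05%) and 4 with the replicate block (19.3%). With array weights 6 were called (56.0%) and without both libraries numbered 3 there were 4 (27.9%). With 1 library left out 0 to 3 were called, the 3 without KD 3 (16.2%). Of the 45 other pathway genes 0 were called. On the log2(FPKM + 1) scale 1 (Timp1) was called, beside 369 of all 10770 genes. With a mean of at least 5 FPKM it was 1 of 38 (Timp1), beside 286 of all 7809 genes. With the replicate block 11 of the 45 were called (19.3% of all tested genes), and with array weights 24 (56.0%). Without both libraries numbered 3 there were 16 (27.9%). With 1 library left out 0 to 7 were called. These were 4 without PLKO 3, beside 801 of all 10770 genes, and 7 without KD 3 (16.2%).

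Lif was called with quantile normalization (log2 fold change 1.27, limma adjusted p = 0.046). With array weights Lif (0.83), Il6st (-1.05), Osmr (-0.75), Jak1 (0.55), Jak2 (0.90) and Pim1 (1.78) were called. The replicate block called Lif (1.18), Il6st (-0.91), Jak2 (0.74) and Pim1 (1.60) and no other of the 10. Without both libraries numbered 3 Lif (0.93), Il6st (-1.19), Jak2 (0.84) and Pim1 (1.68) were called. With 1 library left out the log2 fold change ran from 0.94 to 1.39 for Lif, from -0.21 to 0.41 for Lifr, from -1.22 to -0.73 for Il6st, from -0.61 to 0.01 for Stat3, from -0.40 to 0.97 for Socs3 and from 1.08 to 2.19 for Pim1. Among the other named genes the sign turned for Il11 with array weights (-0.13), for Lcn2 without both libraries numbered 3 (-0.40) and, with 1 library left out, for Il11 (-0.12 to 0.22), Shc1 (-0.05 to 0.33) and Lcn2 (-0.20 to 0.60). The cause of these differences was not tested.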

Other observations

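Il11ra1 and Junb were the 2 of 45 other pathway genes that were more than 1 log2 unit higher in both libraries numbered 3 than in the others of their group, as were 1.86% of all tested genes; none of the 45 was lower by that much in both. Junb, an AP-1 gene and STAT3 target, named after its values were seen, had 96.4, 79.4 and 247 FPKM in PLKO 1, 2 and 3 and 149, 146 and 312 FPKM in KD 1, 2 and 3. Within each group it was thus highest in the library numbered 3, in which Socs3, Pim1 and Cish were lowest. Its KD library exceeded the PLKO library of the same number by 0.63, 0.87 and 0.34 on the log2 scale (log2 fold change 0.61, limma adjusted p = 0.40, or 0.066 with the block).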
